A study of Mus musculus with 9 samples.

Results

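The genes described here encode enzymes that place or remove acetyl and methyl groups on histones: deacetylases, acetyltransferases, lysine and arginine methyltransferases and demethylases, with the subunits of Polycomb repressive complex 2 (PRC2). The list held 47 genes. For each, the probe sets (groups of short probes for 1 transcript) that the platform annotation assigned to that gene alone were taken, and the one with the highest mean over the 9 arrays stood for the gene. This gave values for 45 of the 47 genes, out of 18193 named genes in all. Suv39h1 and Ash1l had no probe set named for them here, and Setd8 was found under its current symbol Kmt5a. The 45 genes had 107 probe sets, and 16 of them had only 1.

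Expression was measured on 3' expression arrays in liver of 8-week-old KKAy mice, an obese strain that carries a yellow agouti allele and is used as a model of type 2 diabetes. Each of the 3 groups had 3 arrays. The first group has its treatment given as none and is called untreated here. The second received insulin (40 µg/mL in a 100 µL intraperitoneal injection of the culture medium DMEM), and the third, BI, the same total insulin concentration of which 11% had been modified by biomineralization in place. All groups ate a chow with 34% fat, except that the growth protocol given for BI replicate 2 describes rats. Control mice injected with DMEM alone are also described there, and it is not stated if the untreated arrays are theirs. Whether each array holds RNA of a single mouse or of pooled mice is likewise not stated, so a p-value covers the spread among these arrays, in part perhaps technical.

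Acetylation of histone tails loosens chromatin and is written by acetyltransferases and erased by deacetylases. Methylation of lysines or arginines can mark active or silent genes, depending on the residue. In liver, deacetylases and their corepressor complexes are known to take part in the switch between fasted and fed gene expression. Class IIa deacetylases leave the nucleus when phosphorylated, and many of these enzymes are controlled through their location, cofactors and partners rather than their transcript level.

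The arrays were alike as a whole. Array medians ran from 6.11 to 6.29 (log2), and arrays correlated at r = 0.911 to 0.920 within groups and 0.909 to 0.921 between groups. All 9 measured hepatocyte markers lay above the array median on every array, with Alb, the albumin gene, between 15.15 and 15.45. For Gapdh, the 3' minus 5' probe set difference, which grows as RNA degrades, was 0.26 to 0.55 on 8 arrays and 0.65 on untreated replicate 3. It ran from 0.479 to 0.545 on the insulin arrays and from 0.264 to 0.42 on the BI arrays, without overlap. The part of RNA quality in the differences between BI and insulin was not tested. Whole liver holds several cell types, and fewer cells of a type and less RNA per cell cannot be told apart in these values.

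On the probe set that stood for each gene, most histone-modifying enzymes had nearly the same signal in the 3 groups. The log2 difference from untreated was under 0.5 in size for 42 of 45 genes with insulin and for 43 of 45 with BI, and for 43 of 45 between BI and insulin. Over all genes 74.3%, 74% and 75.1% had such differences, and among genes with a mean level of 7 to 12, where 39 of the 45 lie, 95.7%, 95.3% and 95.8%, beside 97.4%, 100% and 100% of these 39. The enzyme genes were thus near other genes of like signal. The median difference over the 45 genes was 0.04 with insulin, -0.05 with BI and -0.07 for BI minus insulin, beside 0.02, 0.00 and -0.03 over all 18193 genes. With insulin 29 genes were higher and 16 lower than without treatment (64.4% higher, beside 53.7% of all genes). With equal array medians, however, 21 were higher and 24 lower (46.7% higher). This scaling shifted all genes by -0.054 with insulin, and the share of all genes higher under it was not computed. With BI 18 were higher and 27 lower on the deposited scale (40% higher, beside 50.1% of all genes). The medians moved with single arrays: without untreated replicate 2 the insulin median was -0.028, and without BI replicate 2, the array with the rat protocol, the BI median was -0.001 and 22 genes were higher.

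No enzyme gene passed the threshold of 0.05 in limma after Benjamini-Hochberg adjustment over 45037 probe sets. Every one of the 45 had an adjusted p of 0.9999 with insulin, 0.9991 with BI and 0.9999 for BI against insulin. Over all probe sets 0% passed with insulin, 0.0111% with BI and 0% for BI against insulin. At an unadjusted p under 0.05 there was 1 gene of 45 with insulin, Hdac9, and 0 with BI or between BI and insulin, beside 3.87%, 3.9% and 3.44% of all genes. The moderated F test over the 3 groups had 0 of 45 genes at an unadjusted p under 0.05 (3.81% of all genes), and none after adjustment.

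**Figure D1:**
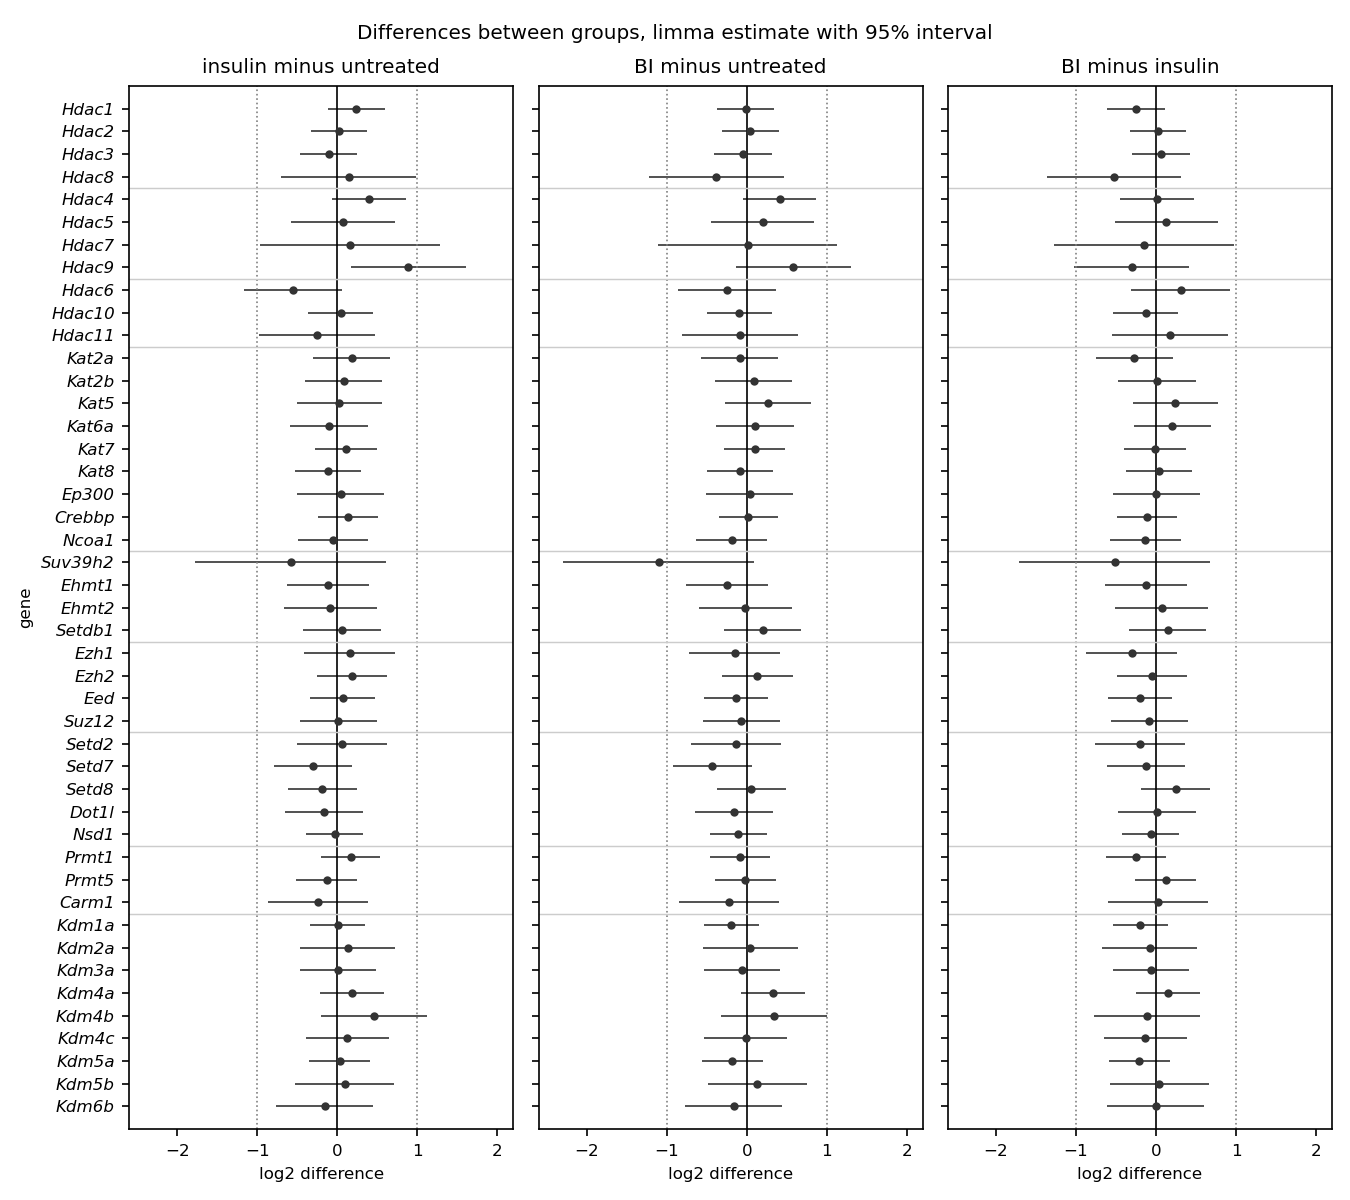
Log2 differences (x axis) of the 45 measured genes (y axis) for insulin minus untreated, BI minus untreated and BI minus insulin, as limma estimates with 95% intervals; grey lines separate enzyme classes and dotted lines mark a 2-fold change. Of the 45 intervals, 40, 40 and 41 lie between the dotted lines, and that of Suv39h2 is the widest on the left.

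The intervals bound the difference between groups on the probe set that stood for each gene, given the spread among these arrays. They do not bound other probe sets of the gene. Setd7 lay within 2-fold here, while its second probe set was at 2.33 with insulin (95% interval 1.14 to 3.52). The 95% interval lay within a 2-fold change in either direction for 40 of 45 genes with insulin (88.9%), 40 with BI and 41 between BI and insulin, beside 51.2%, 51.3% and 51.3% of all genes. Precision depends on signal: among genes with a mean level of 7 to 12 the share was 38 of 39 enzyme genes and 86.7% of all 8222 genes with insulin. The 5 genes whose interval reached past 2-fold with insulin were Hdac6, Hdac7, Hdac9, Suv39h2 and Kdm4b. With BI they were Hdac7, Hdac8, Hdac9, Suv39h2 and Kdm4b. A change within 1.5-fold could be stated for fewer, 20 genes with insulin, 21 with BI and 18 between BI and insulin. For the rest, the interval reached a change of 1.5-fold or more in at least one direction.

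The spread between arrays of a group differed among the genes. The pooled SD within groups had a median of 0.216 over the 45 genes and 0.377 over all genes. It was lowest for Kdm1a (0.077), the flavin-dependent demethylase LSD1, Hdac2 (0.090), a deacetylase of the NuRD and Sin3 complexes, and Nsd1 (0.094), a methyltransferase of lysine 36 of histone H3. It was highest for Suv39h2 (0.675), Hdac7 (0.631) and Hdac8 (0.458).

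**Figure D2:**
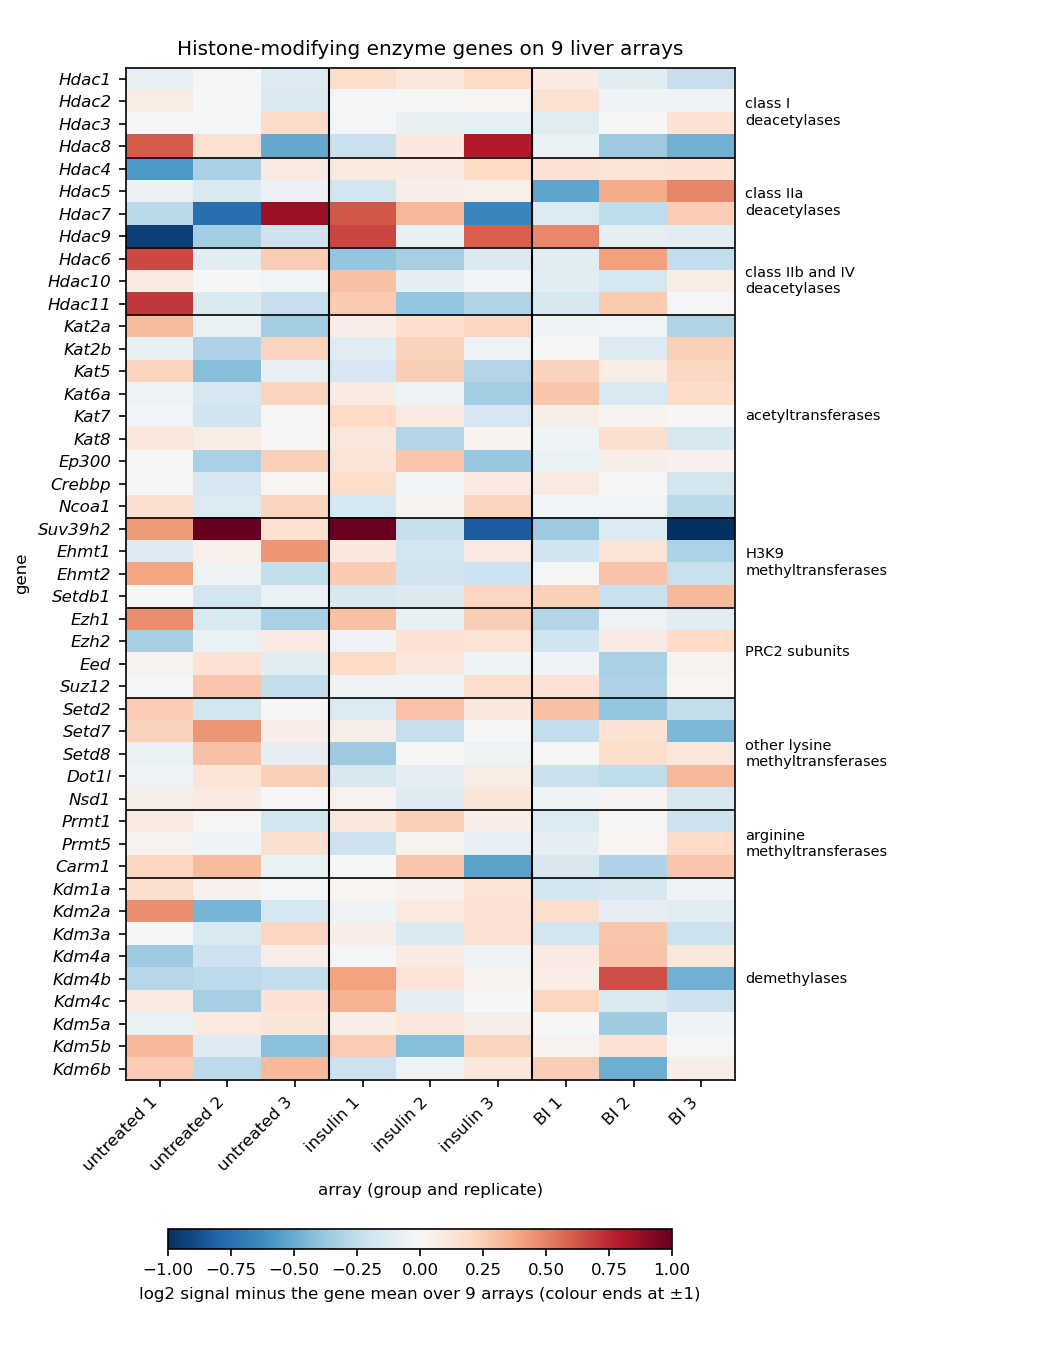
Log2 signal of each of the 45 genes (rows, ordered by enzyme class) on each of the 9 arrays (columns, by group and replicate) minus the gene's mean over the arrays, with colours ending at -1 and 1. Most cells are pale, and the darkest belong to Suv39h2, Hdac7, Hdac9 and Hdac8, whose arrays differ within groups as well as between them.

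Class I deacetylases include the nuclear enzymes of the large corepressor complexes. Hdac1, partner of Hdac2 in these complexes, stood at 9.70, 9.78 and 9.65 on the untreated arrays, 9.97, 9.90 and 9.98 with insulin and 9.87, 9.68 and 9.56 with BI. The insulin arrays lay above all untreated and all BI arrays, while untreated and BI overlapped. The log2 difference was 0.24 ± 0.15 (SE, n = 3 per group) with insulin (unadjusted p 0.166) and -0.25 ± 0.15 for BI minus insulin (limma unadjusted p 0.148). Hdac3, the catalytic subunit of the NCoR corepressor complex, lay between 10.17 and 10.23 with insulin, just below the untreated range of 10.24 to 10.44, with a difference of -0.11 (95% interval -0.47 to 0.25). Hdac2 had group means of 10.35, 10.38 and 10.40 in untreated, insulin and BI livers. Hdac8, which also acts on cohesin, stood at 7.42, 6.97 and 6.31 untreated, 6.60, 6.92 and 7.61 with insulin and 6.76, 6.46 and 6.34 with BI. Its arrays overlapped in every comparison, and its difference between BI and insulin was -0.53 ± 0.36, with an SD of 0.52 among the insulin arrays. Without insulin replicate 3 it was -0.24 (limma unadjusted p 0.522).

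Groups that did not overlap were counted next, against their share among all genes. With insulin this held for 6 of 45 genes (13.3%), namely Hdac1, Hdac9 and Kdm4b above and Hdac3, Hdac6 and Setd7 below the untreated arrays, beside 9.23% of all genes (5.74% above and 3.48% below). With BI it held for 5 (11.1%), with Hdac4, Hdac9 and Kdm4a above and Suv39h2 and Kdm1a below, beside 9.36% (4.84% above and 4.52% below). Between BI and insulin it held for 7 (15.6%), with Setd8 and Kdm4a above and Hdac1, Kat2a, Prmt1, Kdm1a and Kdm5a below, beside 9.88% (4.2% above and 5.68% below). Without BI replicate 2, where 2 arrays faced 3 and groups separate more easily, the counts were 11 with BI and 13 between BI and insulin, beside 18.9% and 19.1% of all genes.

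Class IIa deacetylases shuttle between cytoplasm and nucleus and repress targets of MEF2 transcription factors. Hdac9 stood at 5.21, 5.80 and 5.94 on the untreated arrays, 6.80, 6.07 and 6.74 with insulin and 6.62, 6.04 and 6.04 with BI. All 6 arrays of treated mice lay above the 3 untreated ones by a narrow margin. The difference with insulin was 0.89 ± 0.31, or 1.85-fold (95% interval 0.17 to 1.61 on the log2 scale, limma unadjusted p 0.0219, adjusted p 0.9999), and with BI 0.58 ± 0.31 (unadjusted p 0.0970). Both comparisons share the untreated arrays. Without untreated replicate 1, insulin replicate 1 or insulin replicate 3 the insulin difference was 0.67 (limma unadjusted p 0.0737), 0.75 (0.0714) or 0.79 (0.0679). The BI difference was 0.36 (0.286) without untreated replicate 1 and 0.39 (0.278) without BI replicate 1. The dimmer Hdac9 probe set, with a mean of 2.93, was at 0.89 ± 0.85 with insulin and its groups overlapped.

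Hdac4, which in liver is known to respond to glucagon signalling, stood at 6.59, 6.84 and 7.25 on the untreated arrays, 7.26, 7.25 and 7.36 with insulin and 7.31, 7.29 and 7.31 with BI. The treated arrays lay close together, and untreated replicate 3 lay level with them. The difference was 0.40 ± 0.20 with insulin (unadjusted p 0.0813) and 0.41 ± 0.20 with BI (unadjusted p 0.0738). Untreated replicate 3 is the array with the highest Gapdh difference, and the part of RNA quality in this value was not tested. Without it the differences were 0.58 and 0.59 (limma unadjusted p 0.0139 and 0.0127, adjusted p 0.822 and 0.772). Without untreated replicate 1, the lowest array, they were 0.25 and 0.26 (unadjusted p 0.245 and 0.224). The Hdac4 probe set with the second highest mean, 6.76, was at -0.06 with insulin and 0.01 with BI.

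The other class IIa genes varied within groups. Hdac7 stood at 6.47, 5.99 and 7.60 untreated, 7.36, 7.07 and 6.09 with insulin and 6.60, 6.49 and 6.99 with BI, and its differences were 0.16 ± 0.48 and 0.01 ± 0.48. Hdac5 had means of 8.77, 8.84 and 8.97, with BI replicate 1 at 8.33 and the other BI arrays at 9.23 and 9.34. All 4 class IIa genes had a positive difference with insulin (median 0.28), under each scaling tried, and all 4 with BI (median 0.30), where Hdac7 changed sign with quantile normalization or equal array medians. Over all genes 53.7% and 50.1% were higher on the deposited scale. Endothelial and immune cells also express class IIa genes. The 10 endothelial markers, summed on the linear scale, lay at 12.83 to 13.31 (log2) untreated, 13.11 to 13.54 with insulin and 12.84 to 13.10 with BI, so that all insulin arrays lay above all BI arrays. Single endothelial markers had a median difference of 0.29 with insulin and -0.06 with BI. The Kupffer cell and macrophage markers were at 0.32 and 0.00, and the lymphocyte markers at 0.27 and 0.01. The part of these cells in the class IIa values was not tested.

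**Figure D3:**
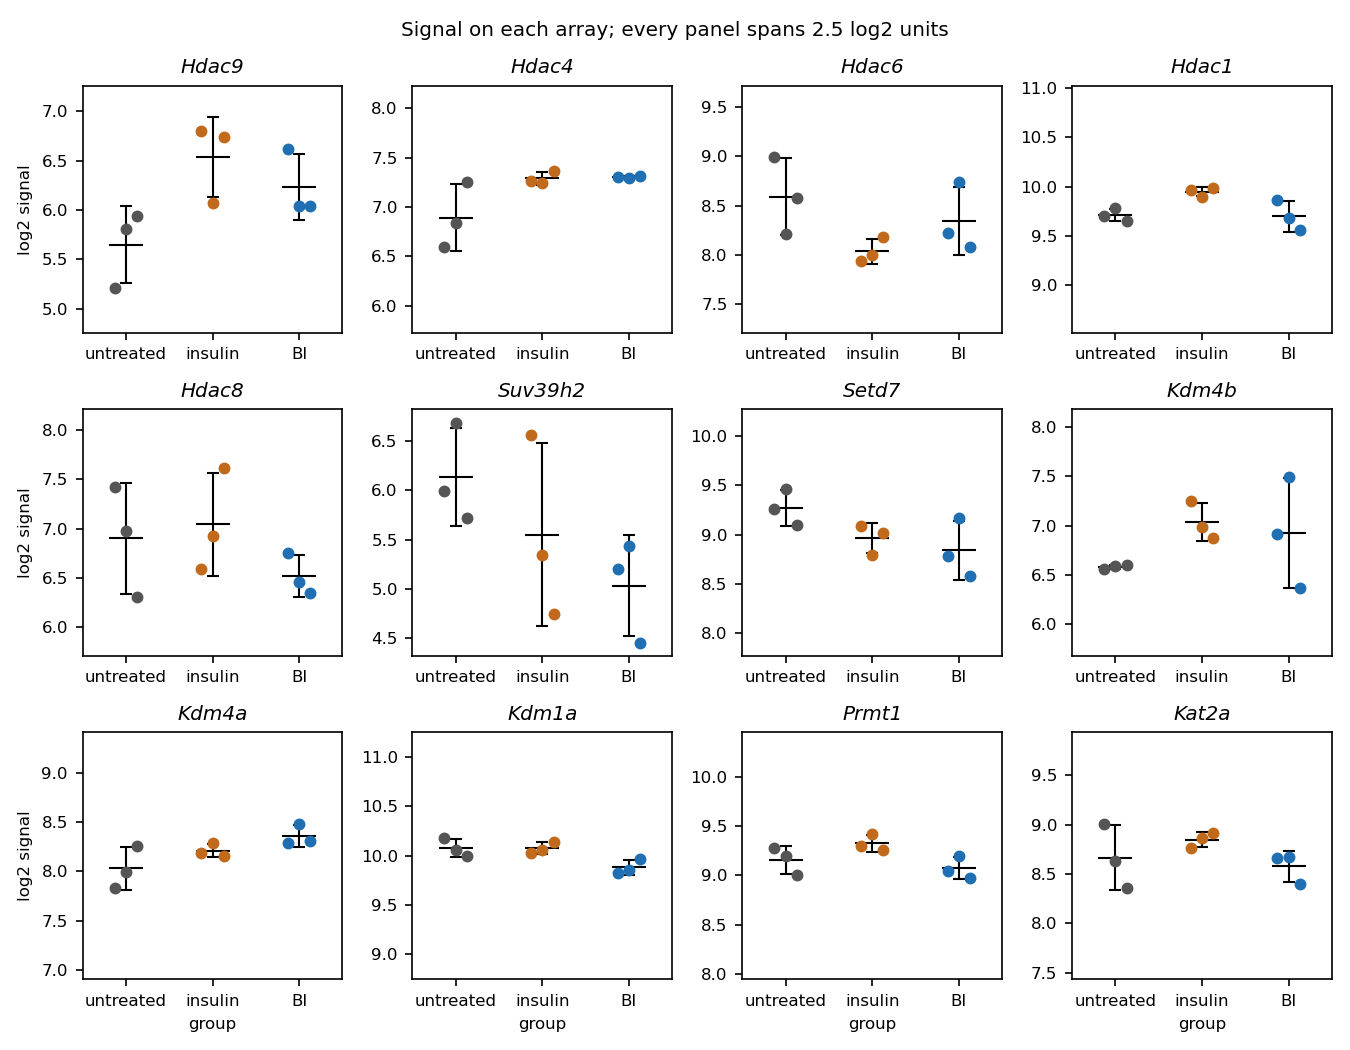
Log2 signal on each array (points) with the group mean and SD (bars, n = 3) for 12 genes, all panels spanning 2.5 log2 units. They are the 6 genes of smallest p in each comparison, except Setd8, which is not shown. Hdac9 shows treated arrays above untreated ones, Suv39h2 shows BI arrays at 4.46 to 5.44 below untreated ones at 5.72 to 6.69, and most other panels show groups close to each other.

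Among class IIb and class IV deacetylases, Hdac6, which removes acetyl groups from tubulin in the cytoplasm, stood at 8.99, 8.21 and 8.58 untreated, 7.94, 8.00 and 8.18 with insulin and 8.22, 8.74 and 8.08 with BI. The insulin arrays lay just below the untreated ones, and the BI arrays overlapped with both. The difference with insulin was -0.56 ± 0.26 (95% interval -1.17 to 0.06, limma unadjusted p 0.0701). Without untreated replicate 1 it was -0.36 (0.217), and without untreated replicate 2 it was -0.75 (0.0282). Hdac10, a polyamine deacetylase, had group means of 7.56, 7.60 and 7.46, and Hdac11, the class IV enzyme, 8.94, 8.69 and 8.86, with untreated replicate 1 at 9.54 above its other arrays.

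The 9 acetyltransferase genes had differences from untreated between -0.12 and 0.18 with insulin and between -0.19 and 0.27 with BI. Medians were 0.04 in both comparisons. Their 95% intervals all lay within 2-fold. Kat2b, the acetyltransferase PCAF, had means of 12.56, 12.64 and 12.65 in untreated, insulin and BI livers. The coactivators Ep300 and Crebbp, which CREB recruits to genes such as those of gluconeogenesis, stood at 10.19, 10.23 and 10.23, and at 10.40, 10.53 and 10.42. The SD of Ep300 over the insulin arrays was larger than these differences, its values being 10.36, 10.50 and 9.84. Kat2a, the GCN5 enzyme that also acetylates PGC-1alpha, stood at 9.01, 8.63 and 8.36 untreated, 8.77, 8.86 and 8.91 with insulin and 8.66, 8.67 and 8.40 with BI. Its BI arrays lay below the insulin arrays, and the difference of -0.27 ± 0.21 had a limma unadjusted p of 0.229. Kat5, the TIP60 enzyme, had means of 8.50, 8.52 and 8.76. Kat6a (8.14, 8.04 and 8.24), Kat7 (9.03, 9.14 and 9.13) and Kat8 (9.25, 9.13 and 9.17), enzymes of the MYST family, and the nuclear receptor coactivator Ncoa1 (10.10, 10.04 and 9.91) lay as close together.

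Methyltransferases of lysine 9 of histone H3 build silent chromatin. Suv39h2, which adds the trimethyl mark of heterochromatin, stood at 5.99, 6.69 and 5.72 on the untreated arrays, 6.56, 5.34 and 4.74 with insulin and 5.21, 5.44 and 4.46 with BI. The BI arrays lay below the untreated ones, and the insulin arrays spanned both groups. This was the largest difference among the 45 genes in the 3 comparisons, -1.10 ± 0.51 with BI (95% interval -2.30 to 0.09, limma unadjusted p 0.0658, adjusted p 0.9991), on a gene whose mean of 5.57 lay below every array median. Its other probe sets did not share a direction: the one with a mean of 5.03 stood at 1.11 ± 0.83 with BI and 2.17 ± 0.83 with insulin (unadjusted p 0.0332), and the one with a mean of 2.90 at -1.37 with BI. Cell-cycle genes are often expressed together with Suv39h2. The 14 measured proliferation markers, summed, lay at 11.91 to 12.67 (log2) untreated, 12.13 to 12.33 with insulin and 11.92 to 12.05 with BI, the insulin arrays lying above the BI arrays. Pcna, with a mean of 11.10, weighs most in this sum. Single markers had a median difference of -0.23 with BI. Mki67 (-1.98, limma unadjusted p 0.0536) and Ccnb2 (-1.85, 0.0594, groups not overlapping) stood furthest from it, while Mcm5 (0.195) and Tyms (0.086) were positive. The untreated arrays of Mki67 spread from 4.805 to 7.88. Bub1, with a mean of 2.69, lay higher on every BI array than on the insulin ones (2.41, limma unadjusted p 0.0291). No marker passed after adjustment, and the part of the proliferation markers in the Suv39h2 value was not tested. Ehmt1 and Ehmt2, the paired enzymes GLP and G9a that add the dimethyl mark, differed from untreated by -0.12 and -0.09 with insulin and by -0.25 and -0.02 with BI. Setdb1, which silences repeats, was at 0.05 and 0.20.

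PRC2 places the repressive mark on lysine 27 of histone H3. Its catalytic subunits Ezh1 and Ezh2 had means of 9.08, 9.23 and 8.92, and of 8.05, 8.24 and 8.19, in untreated, insulin and BI livers. The core subunits Eed (10.65, 10.72 and 10.52) and Suz12 (10.14, 10.15 and 10.07) differed by 0.14 or less from untreated. All 4 were higher with insulin on the deposited scale, by 0.01 to 0.18 (53.7% of all genes were). With equal array medians 3 of 4 were higher, and the share of all genes under that scaling was not computed. The largest difference of the complex was that of Ezh1 between BI and insulin, -0.31 ± 0.24 (limma unadjusted p 0.247).

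Of the other lysine methyltransferases, Setd7, a monomethyltransferase of lysine 4 of histone H3 and of several non-histone proteins, stood at 9.26, 9.47 and 9.10 untreated, 9.08, 8.80 and 9.02 with insulin and 8.78, 9.17 and 8.58 with BI. The insulin arrays lay just below the untreated ones, and BI replicate 2 lay among the untreated ones. Differences were -0.31 ± 0.21 (limma unadjusted p 0.187) and -0.43 ± 0.21 (0.0777), and the latter was -0.59 (0.0270) without BI replicate 2, -0.30 (0.232) without BI replicate 3 and -0.33 (0.201) without untreated replicate 2. The second probe set of Setd7 pointed the other way. It stood at 2.76, 3.29 and 4.56 untreated, 5.97, 5.59 and 6.04 with insulin and 4.97, 4.67 and 5.95 with BI. Both treated groups lay above the untreated one, by 2.33 ± 0.51 (limma unadjusted p 0.00219, adjusted p 0.812) and 1.66 ± 0.51 (0.0128 and 0.9991). All its values lay below the array medians, and with no background measure in the data it is not known whether they were above background. Setd8, which monomethylates lysine 20 of histone H4, stood at 9.84, 10.19 and 9.80 untreated, 9.54, 9.88 and 9.85 with insulin and 9.91, 10.08 and 10.02 with BI. BI lay above insulin by 0.24 ± 0.18 (limma unadjusted p 0.225), or by 0.14 (0.518) without insulin replicate 1. Setd2 and Nsd1, which methylate lysine 36, and Dot1l, which methylates lysine 79 of histone H3, differed from untreated by -0.17 to 0.06 in both treated groups.

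The arginine methyltransferases Prmt1, Prmt5 and Carm1 differed from untreated by 0.17, -0.14 and -0.24 with insulin and by -0.09, -0.02 and -0.22 with BI. Prmt1, the main enzyme of asymmetric dimethylation, stood at 9.29, 9.42 and 9.25 with insulin and at 9.05, 9.20 and 8.97 with BI. The 2 groups did not overlap, and the difference was -0.25 ± 0.16 (limma unadjusted p 0.158). Its untreated arrays (9.28, 9.20 and 9.001) overlapped with both.

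Demethylases comprise the flavin enzyme Kdm1a and the JmjC enzymes, which use iron and 2-oxoglutarate. Kdm1a stood at 10.17, 10.05 and 10.00 untreated, 10.03, 10.05 and 10.14 with insulin and 9.82, 9.85 and 9.97 with BI. The BI arrays lay below all 6 others by a small step of -0.19 ± 0.15 against untreated and -0.20 ± 0.15 against insulin (limma unadjusted p 0.226 and 0.222). Its second probe set, with a mean of 8.04, was at -0.23 and 0.05 in the same comparisons. Of the JmjC enzymes that act on lysines 9 and 36 of histone H3, Kdm4a stood at 7.84, 7.99 and 8.26 untreated, 8.19, 8.28 and 8.16 with insulin and 8.29, 8.48 and 8.31 with BI, so that BI lay above both other groups (0.33 ± 0.17 against untreated, limma unadjusted p 0.0944). Its dim probe set, with a mean of 2.49, stood at 1.22, 1.59 and 1.34 untreated, 3.29, 2.57 and 4.78 with insulin and 2.53, 3.22 and 1.87 with BI. It was higher in both treated groups, by 2.16 ± 0.58 with insulin (limma unadjusted p 0.00633, adjusted p 0.974) and 1.16 ± 0.58 with BI. Kdm4b stood at 6.56, 6.59 and 6.60 untreated, 7.25, 6.98 and 6.88 with insulin and 6.91, 7.49 and 6.37 with BI. Its insulin arrays lay above the untreated ones (0.45 ± 0.28, limma unadjusted p 0.152), and its BI arrays lay on either side of them.

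The remaining demethylases stayed within 0.21 of each other between groups. Kdm5a, which removes methyl groups from lysine 4, had means of 9.71, 9.74 and 9.53, with BI below insulin on every array, and Kdm5b, of the same family, 9.08, 9.17 and 9.21. Kdm6b, which removes the mark that PRC2 places, had means of 8.80, 8.64 and 8.63. Kdm2a stood at 8.76, 8.89 and 8.81, Kdm3a at 9.62, 9.62 and 9.56, and Kdm4c at 7.86, 7.98 and 7.85. With insulin 8 of the 9 demethylases were higher on the deposited scale (median 0.09), beside 53.7% of all genes. With equal array medians 5 of 9 were higher, and the share of all genes under that scaling was not computed.

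Different probe sets of a gene often disagreed. For the 29 genes with more than 1 probe set, 62 further probe sets were available. Their difference had the sign of the gene's highest probe set in 37 of 62 cases with insulin (59.7%), 36 with BI (58.1%) and 27 between BI and insulin (43.5%). Most of the 62 were dim: 19 had a mean of 7 or more, of which 11, 12 and 9 shared the sign. The share over all genes was not computed, so this is not shown to be particular to these genes. At an unadjusted p under 0.05 there were 3 of the 62 with insulin (4.84%), those of Setd7, Suv39h2 and Kdm4a described above, beside 4.47% of all probe sets. With BI there were 2 (3.23%, beside 4.48%), that of Setd7 and one of Kat2b, which stood at 6.84, 6.89 and 7.57 untreated and 6.77, 6.24 and 6.23 with BI (-0.69 ± 0.26, limma unadjusted p 0.0293), while the highest probe set of Kat2b was at 0.09 ± 0.21. Between BI and insulin there was 1, a probe set of the demethylase Kdm2a at -2.13 ± 0.88 (1.61%, beside 4.04% of all probe sets). None passed after adjustment in limma (smallest adjusted p 0.812).

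**Figure D4:**
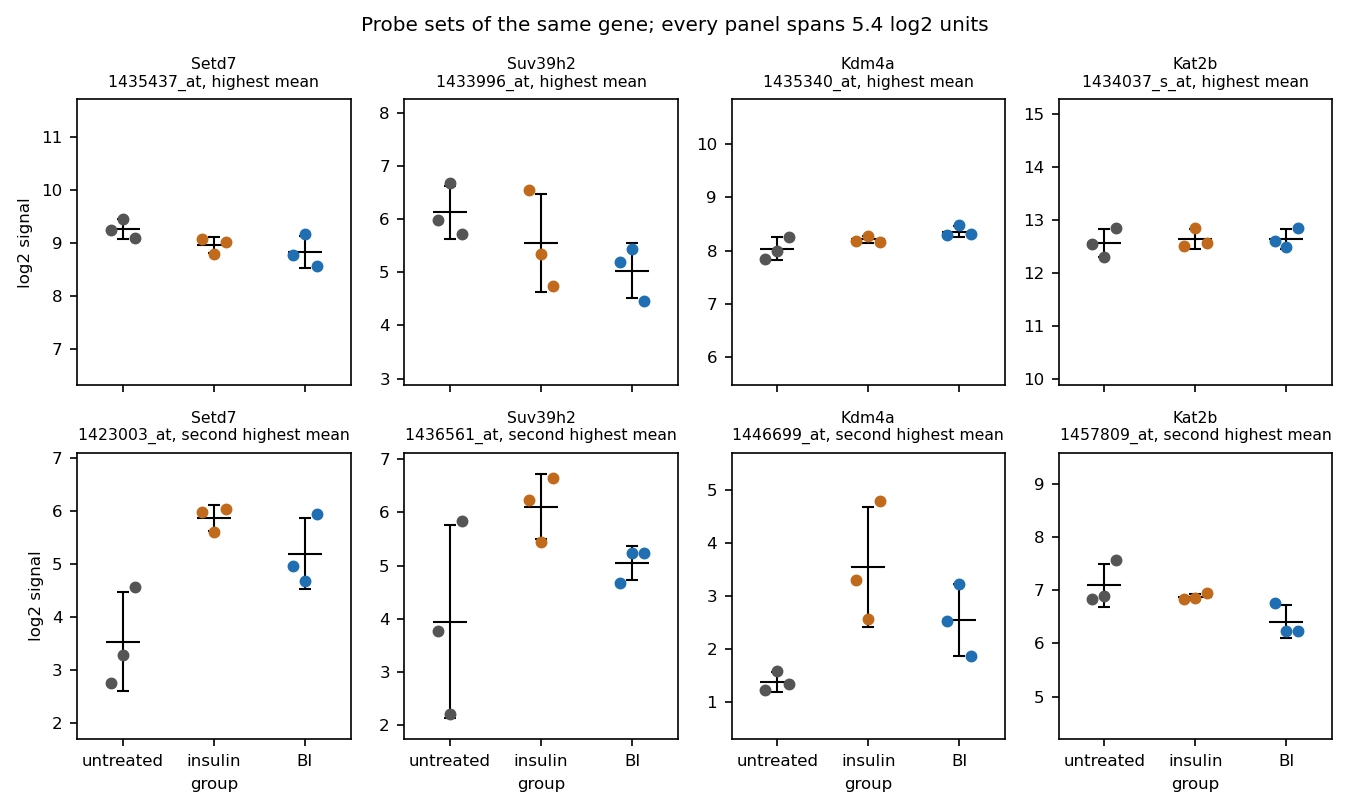
Log2 signal on each array (points) with the group mean and SD (bars, n = 3) for the probe sets of highest (upper row) and second highest mean (lower row) of Setd7, Suv39h2, Kdm4a and Kat2b, all panels spanning 5.4 log2 units. Setd7 lies at 8.58 to 9.47 on its upper probe set and at 2.76 to 6.04 on the lower one, where treated arrays lie above untreated ones.

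Promoters were compared to see what these genes share in sequence. RefSeq start sites (assembly GRCm38.p6) were at hand for 36 of the 47 genes, 50 starts in all, and the 250 bases before each start were read. A CG dinucleotide occurred a median of 16.5 times per window, beside 6 over 32851 windows of all genes. G and C made up a median of 60.6% of the bases, beside 52.4% over all windows. The GC box GGGCGG, the letters bound by SP1, was found on either strand in 29 of 50 windows (58%), beside 32.7% of all windows. The CCAAT box was found in 22 (44%), beside 33.8%, and the cAMP response element TGACGTCA in 1, that of Suv39h2, beside 1.55%. The CCAAT box was searched as CCAAT, and no motif contains another. A match is a description, not a binding site. Windows of like G and C content and genes of like signal were not compared, so no share is shown to be particular to these genes. Windows of 4 genes described above are shown for the contrast between Hdac9, with 0 CG dinucleotides, and Hdac4, Suv39h2 and Setd7, with 23, 27 and 17. Capitals mark GC boxes and the cAMP response element, on either strand. Hdac9 has 2 listed starts, of which the first is shown, and the other held 2 CG dinucleotides.
Hdac4 (chr1:92180342-92180591, minus strand): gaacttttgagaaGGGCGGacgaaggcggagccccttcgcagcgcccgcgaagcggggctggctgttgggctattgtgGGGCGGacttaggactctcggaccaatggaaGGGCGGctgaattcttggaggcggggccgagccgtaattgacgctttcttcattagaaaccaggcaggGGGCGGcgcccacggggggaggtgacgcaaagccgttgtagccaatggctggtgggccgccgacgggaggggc
Hdac9 (chr12:34917096-34917345, minus strand): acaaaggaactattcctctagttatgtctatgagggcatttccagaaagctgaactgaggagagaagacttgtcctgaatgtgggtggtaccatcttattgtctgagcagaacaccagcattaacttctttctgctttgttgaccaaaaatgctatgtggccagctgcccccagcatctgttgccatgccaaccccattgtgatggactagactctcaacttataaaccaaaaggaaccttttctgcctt
Suv39h2 (chr2:3474987-3475236, minus strand): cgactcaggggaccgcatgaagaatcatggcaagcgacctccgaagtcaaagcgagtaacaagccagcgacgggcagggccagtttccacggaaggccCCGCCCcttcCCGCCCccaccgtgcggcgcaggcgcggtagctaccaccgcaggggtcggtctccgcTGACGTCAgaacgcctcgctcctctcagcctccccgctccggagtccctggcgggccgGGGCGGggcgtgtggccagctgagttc
Setd7 (chr3:51560824-51561073, minus strand): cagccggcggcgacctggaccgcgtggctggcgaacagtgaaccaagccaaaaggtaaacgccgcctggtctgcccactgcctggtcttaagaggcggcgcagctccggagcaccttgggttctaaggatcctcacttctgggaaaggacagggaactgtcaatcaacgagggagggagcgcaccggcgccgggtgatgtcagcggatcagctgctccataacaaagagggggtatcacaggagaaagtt
Hdac4 held 4 GC boxes and Suv39h2 held 3, while Hdac9 and Setd7 held none in these windows. The most CG dinucleotides, 44, were in the windows of Crebbp and Dot1l, and those of Kdm3a (1 of 3 starts) and Kdm4c (1 of 2 starts) also held 0.

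Of a list of 83 further histone-modifying enzymes, corepressor and PRC2 partners and readers of histone marks, 79 genes had values. Of these, 43 were higher and 36 lower with insulin (median 0.04), 50 and 29 with BI (median 0.05) and 39 and 40 for BI minus insulin (median -0.002). None passed after adjustment in limma. At an unadjusted p under 0.05 there were 0, 2 and 1 (0%, 2.53% and 1.27%), beside 3.87%, 3.9% and 3.44% of all genes. Tbl1x, a subunit of the NCoR complex that holds Hdac3, stood at 10.78, 10.46 and 10.93 untreated, 11.41, 10.86 and 11.35 with insulin and 11.39, 11.32 and 11.73 with BI. Its BI arrays lay above the untreated ones, by 0.75 ± 0.23 (limma unadjusted p 0.0129, adjusted p 0.9991), and the insulin difference was 0.48 ± 0.23 (0.0748). Brd2, a reader of acetylated histones, stood at 10.35, 10.48 and 10.32 untreated, 10.54, 10.38 and 10.42 with insulin and 10.66, 10.75 and 11.01 with BI, above both other groups (0.42 ± 0.16 against untreated, limma unadjusted p 0.0341, and 0.36 ± 0.16 against insulin, 0.0608). Hmg20b, a subunit of the CoREST complex that holds Kdm1a, lay at 5.43, 5.47 and 5.84 with BI, below 6.23, 6.28 and 6.27 with insulin (-0.68 ± 0.23, limma unadjusted p 0.0200), and its untreated arrays (6.30, 5.84 and 5.55) overlapped with both. Phf8, a JmjC demethylase, was at 0.54 ± 0.29 with insulin (limma unadjusted p 0.0970).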

How the data were processed

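The data are log2 signals per probe set on 9 one-colour arrays, as the authors deposited them. Per the labels' protocols, TRIzol RNA was purified on RNeasy columns and labelled with a 3' IVT kit. The software behind the signals was not given in the sources used here. From the values, each array had the same 2% trimmed mean of the linear signal (500.004) and a floor at a log2 value of 0 (152 to 247 probe sets per array), so the values were used as deposited, with no background measure.

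Of 45101 probe sets, 64 controls were left out. The 2016 platform annotation gave 1 gene symbol for 34945, several for 932 and none for 9160. Names were updated by gene ID for 34741. All 9 arrays entered one limma 3.58.1 fit in R 4.3.3 (group means, eBayes without trend, 6 residual degrees of freedom), two-sided, adjusted by Benjamini-Hochberg over 45037 probe sets. Errors are SEs and 95% intervals of this fit unless called SD. Precision is limited by having 3 arrays a group, with a 95% interval reaching a median of 0.56 to either side at levels 7 to 9 and 0.44 at 9 to 12. Same-numbered arrays did not vary together (r = -0.034 to 0.036 over 9 pairs, -0.033 to 0.027 for other pairs), so the numbers were not taken as pairs.

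Array values and tests are given for the 6 genes of smallest p in each comparison, genes changed 2-fold or more and genes whose probe sets disagree in sign with an unadjusted p under 0.05; the related list names its 2 of smallest p. Hdac3, Hdac5, Hdac7, Ep300 and the second probe sets of other genes were added after their values were seen. The genes and lists were chosen with earlier results of these data known. The markers listed for T, NK and B lymphocytes, neutrophils, stellate cells, Kupffer cells, cholangiocytes, adipocytes and acinar pancreas are summarized in the closing section. Alternatives were a filter on dim probe sets, arrays set to equal medians, quantile normalization, a variance trend with robust fitting, the mean or the second highest of a gene's probe sets, the replicate number as a block, fits of 2 groups and leaving out each array.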

Additional observations from a re-analysis of the deposited data

How the results depend on the processing

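No enzyme gene passed the adjusted threshold in limma under any alternative run, in any comparison or in the F test. Counts of genes at an unadjusted p under 0.05 moved. With insulin the count of 1 became 3 with the filter on dim probe sets, 2 with a variance trend and robust fitting, 2 with probe sets averaged per gene and 3 with the second highest probe set, beside 3.61%, 4.46%, 4.74% and 4.53% of all genes in the same settings. With BI the count of 0 became 3, 1, 2 and 2 in these settings (4.11%, 4.79%, 4.84% and 4.53% of all genes) and 1 in a fit of only the groups compared (3.75%). The F test's count of 0 became 1 with the filter (3.53% of all genes) and 2 with the mean or the second probe set (4.72% and 4.52%). Leaving out 1 array in turn gave counts of 0 to 2 with insulin and 0 to 2 with BI. Between BI and insulin and in the F test the counts were 0 to 1. In these 4 tests, in this order, the share of all genes ran from 3.65% to 4.56%, 3.68% to 4.86%, 3.34% to 3.88% and 3.69% to 4.33%. The medians over the enzyme genes then ran from -0.028 to 0.067, from -0.081 to -0.001 and from -0.085 to -0.012. With equal array medians the insulin median was -0.015, and this scaling shifted all genes by -0.054.

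With the replicate number as a block the BI count was 1, Suv39h2 (4.09% of all genes), and the block changed no other count. Same-numbered arrays were no closer than others, and 2 of 9 arrays correlated best with their own number, so the block is only a check.

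Of the named genes, 8 values changed sign. With the mean of its probe sets Setd7 was at 1.01 with insulin and 0.61 with BI, and with its second probe set at 2.33 and 1.66. Second probe sets put Hdac4 at -0.063 with insulin, Suv39h2 at 1.11 with BI, and Kdm1a at 0.051 and Setd8 at -0.25 between BI and insulin. The cause was not tested. The filter on dim probe sets left Suv39h2 out of the test. Signal over background could not be judged.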

Other observations

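Markers of other liver cells were measured beside the enzymes, and none passed the adjusted threshold in limma. Summed levels (log2 of the linear sum, lowest to highest array) of the 10 Kupffer cell and macrophage markers were 13.77 to 14.59 untreated, 14.06 to 14.61 with insulin and 13.85 to 14.77 with BI. The 10 stellate cell markers lay at 13.43 to 13.94, 13.45 to 13.88 and 13.48 to 13.92, and the 8 lymphocyte markers at 9.94 to 10.49, 10.00 to 10.76 and 9.93 to 10.62. Neutrophil markers (8) spanned 10.73 to 13.28 untreated, 10.78 to 12.12 with insulin and 10.21 to 11.55 with BI. Cholangiocyte markers (6) lay at 8.38 to 9.15, 8.55 to 8.74 and 8.00 to 8.60, adipocyte markers (3) at 4.34 to 5.12, 4.24 to 6.65 and 5.16 to 6.76, and acinar pancreas markers (3) at 10.27 to 11.92, 10.82 to 10.95 and 10.57 to 10.92. Ranges overlapped between groups for each of these lists, except that the summed adipocyte markers were higher on every BI array than on the untreated ones. That margin was narrow, 5.158 at lowest against 5.115 at highest. Few lymphocyte (1 of 8), neutrophil (2 of 8), cholangiocyte (0 of 6), adipocyte (0 of 3) and acinar markers (1 of 3) lay above the array median on every array. The acinar sum rests on Cela1 (mean 10.84), with Cpa1 at 2.525 and Ctrb1 at 3.159. The summed endothelial and summed proliferation markers, given with the enzymes, were higher on every insulin array than on the BI ones.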
